A study of Mus musculus with 6 samples.

Results

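The extracellular proteases of the matrix metalloproteinase (MMP) and ADAMTS families and their tissue inhibitors (TIMPs) were examined in the injured spinal cord of C57BL/6J mice. The members were the protein-coding genes of the count table named as an Mmp, an Adamts, an ADAMTS-like (Adamtsl) or a Timp gene, 50 of 54532 genes in all, of which 22 are MMPs, 19 ADAMTS, 5 ADAMTS-like and 4 TIMPs. Mmp1a, which the table annotates as a polymorphic pseudogene, did not meet that rule and had 0 counts in the 6 libraries. Total RNA was sequenced from 3 libraries of cord taken after rotarod training of spinal cord injured mice, in which the animal walks on a turning rod, and from 3 libraries of cord from injured mice without training. Both groups therefore carry the injury, no uninjured cord is among the samples, and the labels give day 28, counted from training, for both. The labels do not state the age or sex of the mice, the kind or level of the injury, or whether each library is a separate animal, so p-values measure only the spread between these libraries, which may be technical.

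MMPs are zinc-dependent endopeptidases that are made as inactive precursors and that together can cut most proteins of the extracellular matrix. ADAMTS enzymes are secreted metalloproteinases with thrombospondin repeats, several of which cut aggrecan, versican and brevican, the proteoglycans that accumulate in the scar of an injured cord and hinder axon growth. TIMPs bind the active site of these enzymes, and the ADAMTS-like proteins share the repeats of ADAMTS enzymes but have no protease domain. After cord injury, MMP-9 carried by neutrophils is known for opening the blood-spinal cord barrier in the acute phase, and ADAMTS4 has been applied to injured cord in rodents to cut scar proteoglycans.

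No member passed the test between trained and untrained cord. Of the 50 members 41 had enough reads to be tested, and 0 of the 41 had an adjusted p below 0.05 in edgeR's quasi-likelihood test, in which 0.0591% of all 16909 genes tested passed (1 higher and 9 lower in trained cord). By direction these were 0.00591% of genes higher and 0.0532% lower. At an unadjusted p below 0.05, 2 of the 41 were higher in trained cord, Adamts2 and Adamts16, or 4.88% against 4.47% of all genes. Another 3 were lower, Adamts1, Timp3 and Mmp11, or 7.32% against 5.55% of all genes. Together these were 12.2% of the members and 10.0% of all genes, so the share is near the background. Adamts1 had the largest difference of the tested members, 2.0-fold lower in trained cord, and Timp3 was the inhibitor with the smallest p. In 3 of the 41 members, Adamts1, Timp3 and Adamts8, each trained library lay below each untrained one in CPM, 7.32% of the members against 8.69% of all genes in that direction. For Adamts8 this rests on library scaling, since trained replicates 2 and 3 and untrained replicate 3 each had 17 counts. In 0 members did the trained libraries all lie above (8.13% of all genes), and in either direction the groups were apart in 16.8% of all genes. The median log2 fold change, trained over untrained, was -0.097 over the 41 members, 15 positive and 26 negative, and -0.0080 over all genes tested.

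The count of 0 members held in the edgeR fits with RLE scaling (0.0532% of genes passed), upper-quartile scaling (0.0414%), a minimum of 1 CPM in 3 libraries (0.0572%) and a replicate block (0.0296%), and in limma-voom (0.0532%). It held without trained replicate 1 (0.122%), trained replicate 2 (0.0232%), untrained replicate 1 (0.0757%) or untrained replicate 2 (0.0466%). Members passed in the other 4 alternatives, and these members were Adamts1, Timp3 and Timp1. In DESeq2 2 of 35 members passed (5.71%, against 0.608% of genes), and with no filter on low counts 2 of 48 (4.17%, against 0.909%). Without trained replicate 3 it was 2 of 43 (4.65%, against 1.29%), and without untrained replicate 3 it was 1 of 43 (2.33%, against 0.0810%).

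The place and promoter letters of the members were not used to choose them. Mouse Mmp genes are partly gathered in a cluster, and 9 members lie between bases 7272514 and 7699585 of chromosome 9 (GRCm38), in the order Mmp13, Mmp12, Mmp1b, Mmp3, Mmp10, Mmp8, Mmp27, Mmp20 and Mmp7. RefSeq promoter windows (GRCm38.p6, 250 bases before to 50 after a start site) were at hand for 35 of the 50 members, 38 windows in all. They were searched on both strands for the letters of an AP-1 site (TGANTCA, which reads the same on both strands), a cAMP response element (TGACGTCA), a TATA box (TATAAA), a GC box (GGGCGG) and an ETS site (AGGAAG). The AP-1 letters stood in 7 of the 11 windows of the cluster genes, in 0 of the 27 windows of the other members and in 7.81% of all 32851 windows. TATA box letters were in 8 of the 11 cluster windows, 3 of the 27 others and 13.6% of all windows, while GC box letters were in 0 of the 11, 22 of the 27 and 35.7%. The ETS letters were in 39.5% of the 38 member windows and 35.4% of all windows, and the cAMP response element was in 0 of the 38 and 1.79% of all windows.

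The promoters of 4 cluster genes are shown first, because 3 of them hold both the AP-1 and the TATA box letters, and the fourth, of the neutrophil collagenase gene Mmp8, does not hold the AP-1 letters. Capitals mark the motif letters, on either strand. The AP-1 letters begin 35 bases before the start site in Mmp13 (chr9:7272264-7272563, plus strand), 44 bases before the inner start site of Mmp12 (chr9:7347124-7347423, plus strand; its outer start site had none) and 46 bases before that of Mmp3 (chr9:7445572-7445871, plus strand). The TATA box letters begin 16 bases before the start site in Mmp13, 7 bases before it in Mmp3, 3 bases before it in Mmp8 and at position 5 in Mmp12, counting the start site as position 1, so that they follow the AP-1 letters in Mmp13, Mmp12 and Mmp3 at differing distances. Mmp8 is at chr9:7558179-7558478, plus strand.
Mmp13: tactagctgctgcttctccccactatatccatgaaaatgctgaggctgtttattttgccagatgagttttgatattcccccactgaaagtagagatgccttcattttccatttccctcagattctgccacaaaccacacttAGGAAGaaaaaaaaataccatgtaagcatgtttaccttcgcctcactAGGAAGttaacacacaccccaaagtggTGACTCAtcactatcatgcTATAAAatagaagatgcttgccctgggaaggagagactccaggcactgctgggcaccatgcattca
Mmp12: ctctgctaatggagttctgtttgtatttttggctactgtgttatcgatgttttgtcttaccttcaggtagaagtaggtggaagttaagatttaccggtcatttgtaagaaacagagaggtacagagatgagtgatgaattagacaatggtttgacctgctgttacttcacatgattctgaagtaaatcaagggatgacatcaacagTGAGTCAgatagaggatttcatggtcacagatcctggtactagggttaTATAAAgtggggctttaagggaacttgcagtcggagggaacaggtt
Mmp3: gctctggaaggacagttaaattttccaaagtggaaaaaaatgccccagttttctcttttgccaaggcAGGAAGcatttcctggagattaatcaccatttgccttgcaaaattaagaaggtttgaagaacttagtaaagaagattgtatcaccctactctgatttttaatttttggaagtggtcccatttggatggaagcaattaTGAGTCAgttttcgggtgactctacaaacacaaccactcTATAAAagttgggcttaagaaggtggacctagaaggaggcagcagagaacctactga
Mmp8: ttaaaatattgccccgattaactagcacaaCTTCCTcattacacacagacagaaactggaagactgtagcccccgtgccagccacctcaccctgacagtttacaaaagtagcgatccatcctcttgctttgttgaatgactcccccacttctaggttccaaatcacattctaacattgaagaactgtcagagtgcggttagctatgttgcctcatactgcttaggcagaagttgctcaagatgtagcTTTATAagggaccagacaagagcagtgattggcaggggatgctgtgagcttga

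The other 3 promoters shown belong to the members on which the comparison turns, Adamts1 (chr16:85803064-85803363, minus strand), Timp3 (chr10:86300162-86300461, plus strand) and Timp1 (chrX:20869916-20870215, plus strand). The Adamts1 window holds a TATA box followed after 1 base by a GC box, with 3 GC boxes in all, Timp3 has 2 GC boxes and 1 ETS site with no TATA box, and Timp1 has 3 ETS sites and 1 GC box. The AP-1 letters and the full cAMP response element were in none of the 3 windows, which says only that these letters are not within these 300 bases.
Adamts1: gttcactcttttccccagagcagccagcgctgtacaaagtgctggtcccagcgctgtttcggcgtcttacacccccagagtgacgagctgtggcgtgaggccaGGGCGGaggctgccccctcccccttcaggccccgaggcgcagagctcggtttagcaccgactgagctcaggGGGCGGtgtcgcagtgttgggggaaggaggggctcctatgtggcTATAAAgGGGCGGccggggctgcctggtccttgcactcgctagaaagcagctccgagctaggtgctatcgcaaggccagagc
Timp3: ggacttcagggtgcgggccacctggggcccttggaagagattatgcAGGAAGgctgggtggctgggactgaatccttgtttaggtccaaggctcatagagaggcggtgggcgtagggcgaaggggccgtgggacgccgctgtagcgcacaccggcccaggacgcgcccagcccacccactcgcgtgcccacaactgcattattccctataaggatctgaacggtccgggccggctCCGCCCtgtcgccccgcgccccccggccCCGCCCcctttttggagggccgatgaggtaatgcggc
Timp1: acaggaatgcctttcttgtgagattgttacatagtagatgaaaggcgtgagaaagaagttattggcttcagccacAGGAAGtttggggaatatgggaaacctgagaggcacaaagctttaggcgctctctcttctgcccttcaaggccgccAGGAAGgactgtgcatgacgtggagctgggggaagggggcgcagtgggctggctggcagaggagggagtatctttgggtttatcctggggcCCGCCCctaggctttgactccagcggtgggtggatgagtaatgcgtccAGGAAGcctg

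Inhibitor transcripts made up most of the summed level of the members. Levels between genes are given as CPM (read counts relative to the TMM-scaled library size) per kb of gene length, averaged over the 6 libraries. Timp2, whose protein both inhibits MMPs and helps MT1-MMP to activate pro-MMP-2, stood at 169.5 CPM per kb and made up 51.3% ± 1.88 of the summed level of the 50 members in trained and 49.8% ± 1.16 in untrained cord (SD, n = 3 each). The 4 TIMPs together made up 62.4% ± 0.492 in trained and 62.5% ± 0.705 in untrained cord, the MMPs 15.5% ± 0.393 and 15.2% ± 0.386, the ADAMTS genes 15.9% ± 0.531 and 16.4% ± 0.831, and the ADAMTS-like genes 6.27% ± 0.317 and 5.82% ± 0.254. In each of these shares the libraries of the groups overlapped. Summed over the family, the level was 328 ± 14.9 CPM per kb in trained and 343 ± 12.3 CPM per kb in untrained cord.

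Behind Timp2 came Adamts4, an aggrecanase that also marks mature oligodendrocytes, at 27.1 CPM per kb. Its 6 libraries (23.9 to 30.3 CPM per kb) lay apart from those of Timp2 (160 to 180 CPM per kb) and of each member below it. The next 4 could not be ordered, since their libraries overlapped: Timp1 at 16.1 (8.81 to 23.1), the membrane-type gene Mmp15 at 14.6 (13.5 to 15.9), the astrocyte-rich inhibitor Timp4 at 13.9 (13.3 to 14.8) and Adamtsl4, a gene of fibrillin microfibrils, at 12.6 CPM per kb (11.0 to 14.7). Timp3 at 10.1, Adamts1 at 8.74 and Mmp14 at 7.61 CPM per kb followed, and their libraries overlapped too. The 2 gelatinase genes were lower, with Mmp2 at 4.04 and Mmp9 at 3.97 CPM per kb, and could not be ordered either (2.64 to 5.70 and 2.63 to 4.84). At the low end, 9 members were too low to test. Mmp1b and the enamel protease gene Mmp20 had 0 counts in each library, where 3 counts would be 0.116 to 0.192 CPM, a floor that covers counting error only.

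**Figure D1:**
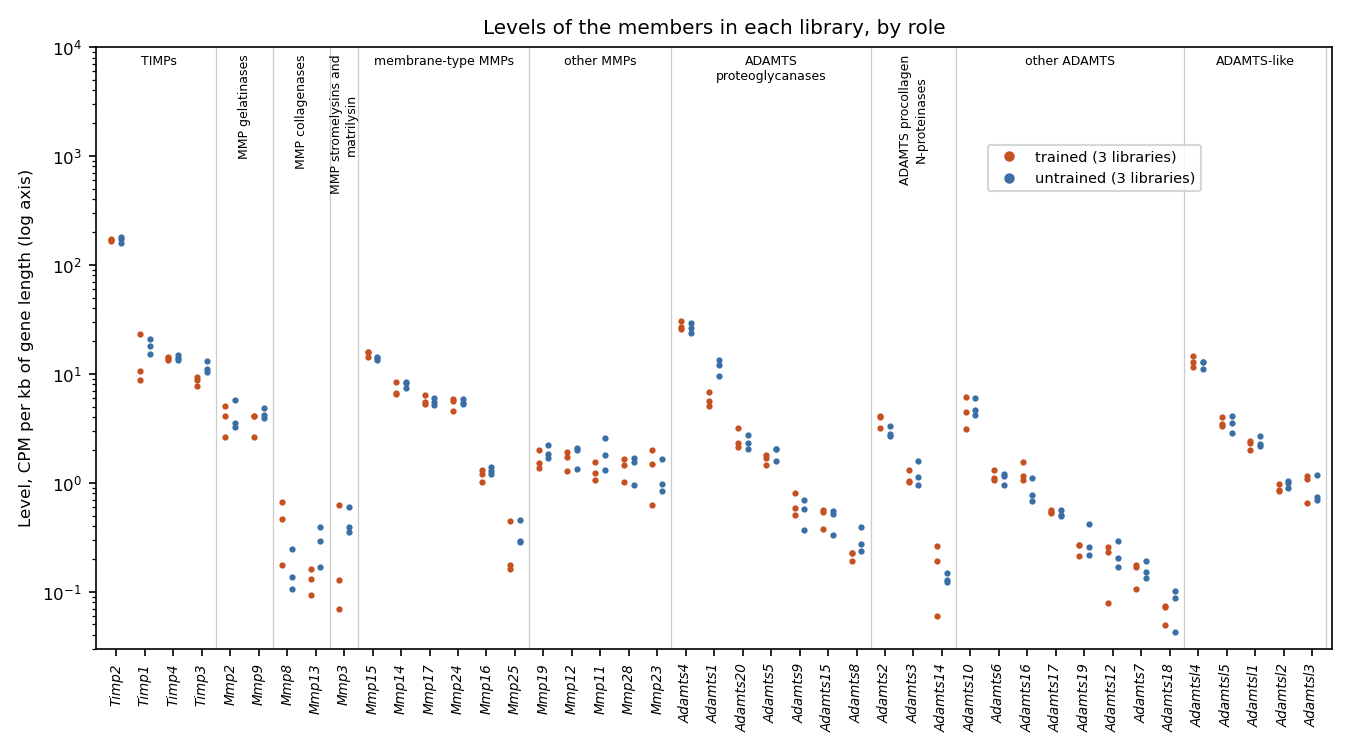
Level of the 43 members with at least 20 counts in all, in CPM per kb of gene length on a log axis, with 1 point per library, trained libraries left of untrained ones, grouped by role. Timp2 lies far above the others, followed by Adamts4, and the points of the groups overlap for most members, with Adamts1 the clearest exception.

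Among the inhibitors, 0 of 4 passed the test and all 4 log2 fold changes were negative, from -0.41 to -0.018, though those of Timp2 and Timp4 are positive under upper-quartile scaling. Timp3 encodes the inhibitor that stays bound to the matrix and acts on aggrecanases as well as MMPs. Trained replicates 1, 2 and 3 held 63.3, 71.7 and 76.3 CPM, against 107, 89.6 and 84.2 CPM in untrained replicates 1, 2 and 3, so that the highest trained library lay under the lowest untrained one. The means were 70.5 ± 6.58 and 93.7 ± 12.1 CPM, a log2 fold change of -0.41 ± 0.10 (SE) with an edgeR adjusted p of 0.218. Timp3 was called by DESeq2 (adjusted p = 0.0335), in which 0.608% of genes passed, and by edgeR with no filter on low counts (adjusted p = 0.000428), in which 0.909% passed. In the leave-one-out edgeR fits its log2 fold change ran from -0.49 to -0.30. Timp3 (bases 86300372 to 86349506 of chromosome 10) lies inside Syn3, on the other strand, and 1733 of its 8144 exon bases also belong to Syn3 exons. Without strand in the counting, reads there cannot be assigned to one of the pair. Syn3 was at 12.1, 9.63 and 7.51 CPM in trained and 11.2, 9.73 and 13.9 CPM in untrained cord, with a log2 fold change of -0.24 ± 0.19, and its part in the Timp3 difference was not tested.

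Timp1, the inhibitor gene that reactive glia and fibroblasts induce after injury, split the trained group. Trained replicates 1, 2 and 3 had 7.82, 9.39 and 20.5 CPM, against 13.4, 16 and 18.7 CPM in untrained replicates 1, 2 and 3. Trained replicate 3 was thus the highest library and the other two were the lowest. The log2 fold change was -0.37 ± 0.42 (edgeR adjusted p = 0.819), and without trained replicate 3 it was -0.89 with an edgeR adjusted p of 0.0170, when 1.29% of all genes passed. Timp2 was at 639, 670 and 658 CPM in trained and 702, 624 and 670 CPM in untrained cord. Timp4 was at 81.7, 83.4 and 79.0 CPM in trained and 78.2, 87.1 and 81.9 CPM in untrained cord. The groups of both overlapped, and the highest library was 1.13 times the lowest for Timp2 and 1.11 times for Timp4. Timp1 and Timp4, like Timp3, lie inside synapsin genes on the other strand (Syn1 and Syn2), with 0 and 90 shared exon bases.

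The gelatinases cut denatured collagen and the collagen IV of basement membranes, and 0 of 2 passed the test. Mmp9, the gelatinase of neutrophils and activated glia, was at 14.4, 14.6 and 9.31 CPM in trained and 14.9, 13.9 and 17.1 CPM in untrained cord. Its log2 fold change was -0.25 ± 0.17 (edgeR adjusted p = 0.644). Trained replicate 3 was the lowest library, and without it the value was -0.056, while it was -0.17 without untrained replicate 3. Mmp2, a gelatinase of fibroblasts and astrocytes, was at 8.91, 13.9 and 16.9 CPM in trained and 19.2, 11.8 and 11.0 CPM in untrained cord. The groups overlapped over most of their range, with a log2 fold change of -0.097 ± 0.31 (edgeR adjusted p = 0.949), which turned positive without trained replicate 1 (0.13) or untrained replicate 1 (0.21).

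The collagenases, which open the triple helix of fibrillar collagen, were too low to test in the filtered fit. Mmp8, the collagenase of neutrophil granules, had 11, 26 and 18 counts in trained and 6, 10 and 4 counts in untrained cord, or 0.426, 1.61 and 1.12 CPM against 0.328, 0.601 and 0.256 CPM. Trained replicates 2 and 3 were above the untrained libraries and trained replicate 1 was among them. In the edgeR fit with no filter on low counts its log2 fold change was 1.36 (adjusted p = 0.283). Of 10 tested neutrophil markers 0 passed and 7 were higher at an unadjusted edgeR p below 0.05, as were 4.47% of all genes. Their median log2 fold change was 1.44, 8 of them positive, with S100a9, a subunit of calprotectin, at 9.06, 18.7 and 18.6 CPM in trained and 6.23, 5.29 and 5.24 CPM in untrained cord. The summed neutrophil list ran from 61.1 to 122 CPM in trained and from 63.0 to 81.7 CPM in untrained cord. Red blood cell markers, of which 0 of 6 passed and all 6 had positive log2 fold changes (median 0.96), summed to 63.0, 151 and 148 CPM in trained and 70.7, 66.7 and 38.5 CPM in untrained cord, so that trained replicates 2 and 3 were high here too. Mmp25, another leukocyte MMP gene, and Mmp9 had log2 fold changes of the other sign (-0.43 and -0.25). The part of neutrophils or blood in the Mmp8 values was not tested, and in RNA of whole tissue a change in the number of cells of a type and in the RNA of each such cell cannot be told apart.

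Mmp13, the collagenase of bone and cartilage, had the opposite sign. It was at 0.349, 0.432 and 0.248 CPM in trained and 1.04, 0.781 and 0.447 CPM in untrained cord. The counts were 9, 7 and 4 in trained and 19, 13 and 7 in untrained cord. The CPM values did not overlap, but trained replicate 2 and untrained replicate 3 had the same 7 counts. Those libraries were thus set apart only by library scaling. The edgeR fit with no filter gave a log2 fold change of -1.12 (adjusted p = 0.594). Bone and osteoclast markers summed to 41.2 to 44.4 CPM in trained and 33.5 to 40.5 CPM in untrained cord, with 0 of 7 tested members past the test and a median log2 fold change of 0.30. Of the stromelysins and matrilysin, Mmp3 alone could be tested. It had 6, 2 and 18 counts in trained and 13, 18 and 10 counts in untrained cord, and its log2 fold change of -0.79 ± 0.65 had an edgeR adjusted p of 0.724. It was -2.05 without trained replicate 3 (edgeR adjusted p = 0.12), -0.38 without trained replicate 1, -0.37 without trained replicate 2 and -0.53 without untrained replicate 2. Trained replicates 1 and 2 were the lowest libraries of Mmp3. Trained replicate 3 was the highest in CPM, but it and untrained replicate 2 had the same 18 counts and differed only by library scaling. Mmp10 had 2 counts and Mmp7 had 1 count over the 6 libraries together.

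Membrane-type MMPs are anchored to the cell surface, and 0 of 6 passed the test. Mmp15 was at 84.7, 85.7 and 77.1 CPM in trained and 75.1, 73.0 and 77.3 CPM in untrained cord, with a log2 fold change of 0.14 ± 0.07 (edgeR adjusted p = 0.540). Trained replicate 3 lay inside the untrained range. Mmp14, the gene of MT1-MMP, was at 38.6, 40.1 and 50.5 CPM in trained and 49.3, 49.8 and 44.0 CPM in untrained cord. Trained replicate 3 was the highest library of Mmp14 and the groups overlapped, with a log2 fold change of -0.15 ± 0.10 (edgeR adjusted p = 0.660; -0.26 to -0.076 on leaving out 1 library). Mmp17, which is held by a lipid anchor, Mmp24, a form of nervous tissue, and Mmp16 had log2 fold changes of 0.045, -0.035 and -0.14. Mmp25 was at 0.852, 0.926 and 2.36 CPM in trained and 1.53, 2.40 and 1.53 CPM in untrained cord, with trained replicate 3 again apart from the other two of its group.

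Of the other MMPs 5 of 8 could be tested and 0 passed. Mmp11, the gene of stromelysin-3, which furin activates inside the cell, was at 3.41, 2.96 and 4.28 CPM in trained and 7.21, 4.99 and 3.64 CPM in untrained cord. Its log2 fold change was -0.58 ± 0.26 (edgeR adjusted p = 0.488) and -0.28 without untrained replicate 1. The groups overlapped, since trained replicate 3 was above untrained replicate 3. It shares 155 of its 2778 exon bases with Chchd10, a gene on the other strand at a log2 fold change of 0.14 ± 0.08. Mmp19 was at 4.84, 5.31 and 7.01 CPM in trained and 7.81, 6.49 and 6.01 CPM in untrained cord (log2 fold change -0.25 ± 0.19, edgeR adjusted p = 0.700), and 1001 of its 3533 exon bases lie in exons of other genes. Mmp12, macrophage elastase, was at 9.22, 12.5 and 13.9 CPM in trained and 14.5, 9.67 and 15.1 CPM in untrained cord. The groups overlapped in both genes. Mmp23 and Mmp28 had log2 fold changes of 0.21 and -0.047. Mmp12, Mmp28 and the membrane-type gene Mmp24 share 157, 466 and 637 exon bases with other genes. Mmp21 had 4 counts, all in trained replicate 1, and Mmp27 had 4 counts over the 6 libraries.

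**Figure D2:**
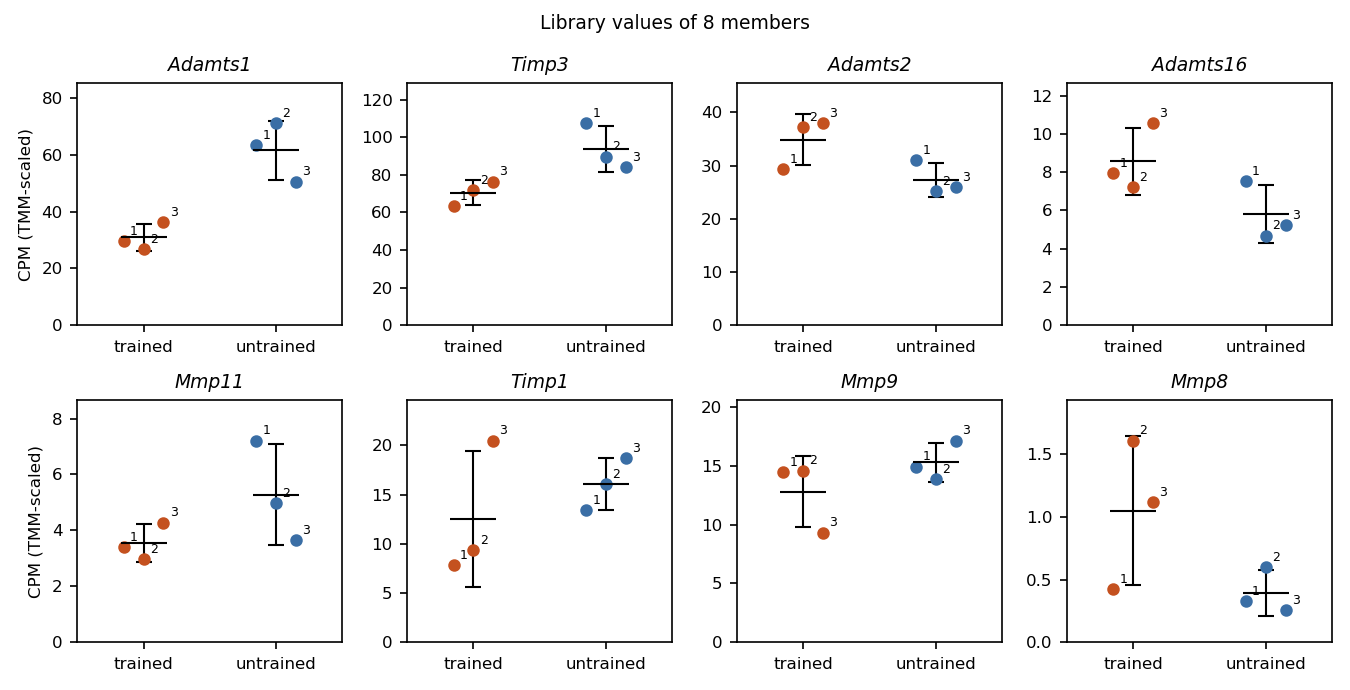
TMM-scaled CPM of 8 members in each library, trained left and untrained right, with the replicate number beside each point. Horizontal lines are means and error bars are SD over 3 libraries. In Adamts1 and Timp3 the trained points lie below the untrained ones, and in Timp1 and Mmp9 trained replicate 3 stands apart.

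The ADAMTS proteoglycanases were measured in full, 7 of 7, and 0 passed the test. Adamts1, an aggrecanase and versicanase that is also known as an early-response gene of endothelium and other cells, had 29.6, 26.9 and 36.4 CPM in the trained libraries 1, 2 and 3, against 63.4, 71.1 and 50.6 CPM in untrained replicates 1, 2 and 3. The highest trained library was well under the lowest untrained one. The means were 30.9 ± 4.89 and 61.7 ± 10.4 CPM, a log2 fold change of -1.0 ± 0.15 with an edgeR adjusted p of 0.105. Adamts1 (bases 85793827 to 85803113 of chromosome 16, minus strand) overlaps no other gene of the table. It passed in DESeq2 (adjusted p = 1.16e-09, where 0.608% of genes passed) and in edgeR with no filter on low counts (9.45e-24, 0.909%). Its log2 fold changes there, -0.996 and -0.989, were near that of the fit reported, so these fits differ in p and not in the size of the difference. It also passed without trained replicate 3 (edgeR adjusted p = 0.0133, 1.29%) and without untrained replicate 3 (0.00609, where 0.0810% of genes passed). In the other leave-one-out edgeR fits its adjusted p was 0.210 to 0.290, and over the 6 such fits its log2 fold change was -1.12 to -0.88. Endothelial and mural markers summed to 474 to 579 CPM in trained and 549 to 707 CPM in untrained cord, with 0 of 10 past the test and a median log2 fold change of -0.19. Of these Pecam1, at -0.39 ± 0.11, and Flt1, at -0.36 ± 0.10, had an unadjusted edgeR p below 0.05. The part of endothelium in the Adamts1 difference was not tested.

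Adamts5, the main aggrecanase of mouse cartilage, is the neighbour of Adamts1, with 53059 bases between them. It was at 15.8, 19.5 and 18.2 CPM in trained and 22, 22.1 and 17.1 CPM in untrained cord. Its groups overlapped, and its log2 fold change of -0.20 ± 0.13 had an edgeR adjusted p of 0.634 and was -0.31 to -0.11 on leaving out 1 library. Adamts4 was at 146, 128 and 124 CPM in trained and 115, 128 and 141 CPM in untrained cord, a log2 fold change of 0.055 ± 0.089 (edgeR adjusted p = 0.881) whose sign changed without trained replicate 1 (-0.020) or untrained replicate 1 (-0.0077). The low gene Adamts8 was at 0.891, 1.05 and 1.06 CPM in trained and 1.26, 1.80 and 1.09 CPM in untrained cord. Its log2 fold change was -0.48 ± 0.34 (edgeR adjusted p = 0.670). The CPM values did not overlap, but the counts, 23, 17 and 17 in trained and 23, 30 and 17 in untrained cord, did. Trained replicates 2 and 3 and untrained replicate 3 thus differed only by library scaling. The versicanase genes Adamts9, Adamts15 and Adamts20 had log2 fold changes of 0.21, 0.065 and 0.098. The summed level of the 7 genes was 40.7, 37.2 and 39.0 CPM per kb in trained and 42.1, 45.7 and 43.6 CPM per kb in untrained cord, without overlap. Without Adamts1 the sums of the other 6 genes were 35.1, 32.1 and 32.2 CPM per kb in trained and 30.2, 32.3 and 34.0 CPM per kb in untrained cord, and they overlapped. Of the 7 log2 fold changes 4 were positive and 3 negative, with a median of 0.055. No other proteoglycanase gene had a log2 fold change below -0.48, and the difference between these genes was not tested. Adamts8 and Adamts9 share 489 and 1805 exon bases with other genes.

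The procollagen N-proteinases remove the amino-terminal propeptide of fibrillar procollagens, and 0 of 3 passed the test. Adamts2 was at 29.4, 37.2 and 37.9 CPM in trained and 31.0, 25.2 and 25.9 CPM in untrained cord. Trained replicates 2 and 3 were above the untrained libraries and trained replicate 1 was not. Its log2 fold change was 0.34 ± 0.12, with an edgeR adjusted p of 0.365 and of 0.0507 with no filter on low counts. Adamts14 (0.29 ± 0.51) and Adamts3 (-0.11 ± 0.21), at 1.37 and 8.63 CPM in their highest library, lay within the spread of the libraries. The summed level of the 3 genes was 5.02 ± 0.456 CPM per kb in trained and 4.28 ± 0.298 CPM per kb in untrained cord.

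Among the other ADAMTS genes 8 of 9 were tested and 0 passed. Adamts16 was at 7.94, 7.23 and 10.6 CPM in trained and 7.54, 4.69 and 5.24 CPM in untrained cord, with a log2 fold change of 0.55 ± 0.21 (edgeR adjusted p = 0.414). Untrained replicate 1 lay above trained replicate 2, so the groups overlapped. Adamts19 was at 1.24, 0.988 and 1.24 CPM in trained and 1.97, 1.2 and 1.02 CPM in untrained cord (log2 fold change -0.28 ± 0.35, edgeR adjusted p = 0.828). Adamts10 and Adamts17, whose products act on fibrillin microfibrils, had log2 fold changes of -0.13 and 0.061, and Adamts7 and Adamts12, which cut the cartilage protein COMP, had -0.12 and -0.28. The values of Adamts6 and Adamts18 were 0.063 and -0.26. Adamts13, the protease of von Willebrand factor, had 0 counts in the trained libraries and 1, 3 and 2 counts in the untrained ones. Each of its libraries was at or under the floor of 3 counts, so no fold is given.

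All 5 ADAMTS-like genes were tested and 0 passed. Adamtsl4 was at 53.4, 48.1 and 61.5 CPM in trained and 53.9, 46.2 and 54.3 CPM in untrained cord, with a log2 fold change of 0.078 ± 0.098 (edgeR adjusted p = 0.83). Adamtsl2, which binds fibrillin and the TGF-beta binding protein LTBP1, was at 6.66, 6.92 and 7.76 CPM in trained and 7.87, 8.35 and 7.16 CPM in untrained cord. Its log2 fold change was -0.13 ± 0.16 (edgeR adjusted p = 0.814). Adamtsl1 had -0.088 ± 0.11, with a sign that changed without untrained replicate 2 (0.0031), and Adamtsl3 and Adamtsl5 had 0.13 and 0.034. The groups overlapped in each of the 5.

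**Figure D3:**
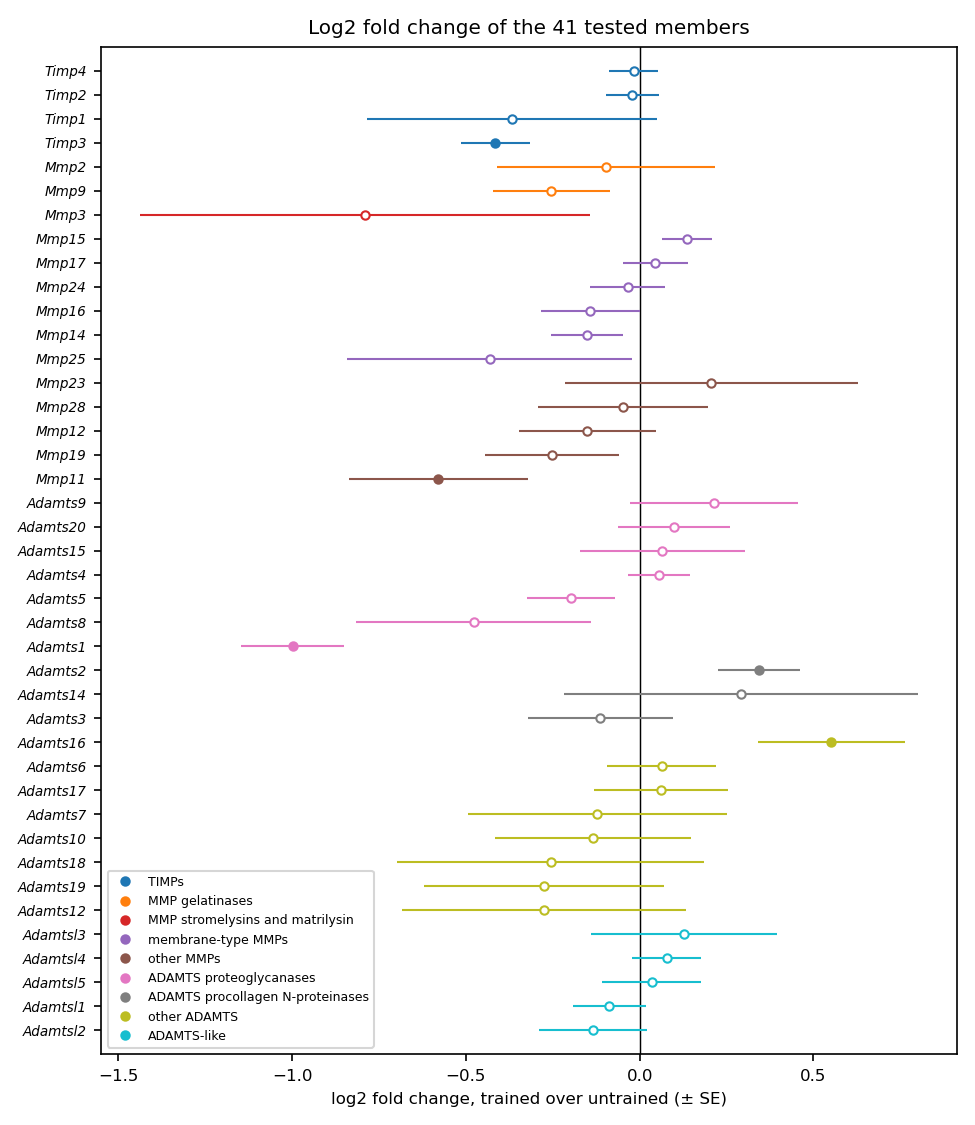
Log2 fold change, trained over untrained, of the 41 tested members with SE bars, coloured by role. Filled points have an unadjusted edgeR p below 0.05 (Adamts1, Timp3, Mmp11, Adamts2 and Adamts16), and 0 pass after adjustment over all genes.

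The libraries of the trained group differed from each other in these genes. In 16 of the 41 tested members (39.0%) no library was lower than trained replicate 1, against 18.7% of all genes tested. These 16 were Adamts5, Adamts7, Adamts8, Adamts10, Adamts12, Adamts14, Adamtsl2, Adamtsl3, Mmp2, Mmp12, Mmp14, Mmp19, Mmp23, Mmp25, Timp1 and Timp3. Trained replicate 3 held the highest value in 12 of the 41 (29.3%), against 21.2% of all genes. Fibroblast and leptomeningeal markers summed to 864, 1745 and 1959 CPM in trained and 1612, 1163 and 1128 CPM in untrained cord, with Col1a1, the main fibrillar collagen gene of scars, at 28.8, 149 and 173 CPM and at 141, 65.9 and 67.4 CPM. Trained replicate 1 was the lowest library in both measures. Monocyte and macrophage markers summed to 351, 344 and 546 CPM in trained and 786, 520 and 560 CPM in untrained cord, and microglial markers to 630, 668 and 800 CPM and to 868, 737 and 800 CPM. The part of these cells in the members' values was not tested. The median log2 fold change of the members, -0.097 with each library in, was -0.020 without trained replicate 1, 0.0100 without untrained replicate 1 and -0.12 without trained replicate 3.

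The members also differed in how much they varied at all. In 15 of the 41 tested members the highest library was under 1.5 times the lowest, among them Timp2, Timp4, Mmp15, Mmp17, Mmp24, Adamts4 and Adamts17. In 13 members it was over 2 times the lowest, among them Adamts1 at 2.65 times, Timp1 at 2.62 times and Mmp3 at 9.04 times. Adamts8, Adamts14, Adamts18, Mmp3 and Mmp25, which are also among the 13, were near or under 1 to 2 CPM, where counting error is large.

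**Figure D4:**
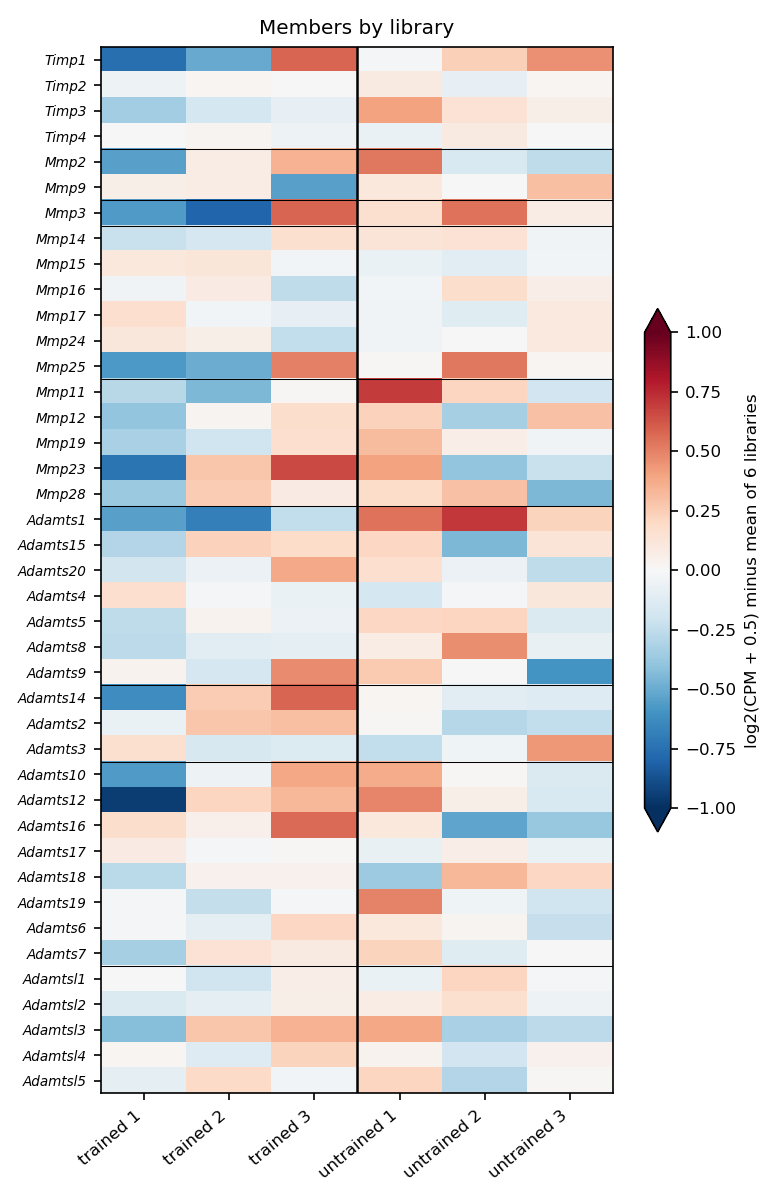
Log2(CPM + 0.5) of the 41 tested members in each library, minus the mean of the 6 libraries, with trained libraries left of the vertical line, untrained ones right of it and roles separated by horizontal lines. The column of trained replicate 1 is low in 16 members that span several roles, and Adamts1 is low in each trained and high in each untrained library.

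Genes that activate, restrain or are cut by these enzymes showed no member past the test either. Of the plasminogen system and other MMP activators 0 of 14 passed (5 log2 fold changes positive, 9 negative, median -0.10), and the smallest p was that of Elane, the neutrophil elastase gene, at 1.51 ± 0.52 (edgeR adjusted p = 0.373). Elane was low, at 0.658, 0.865 and 1.43 CPM in trained and 0.492, 0.360 and 0.128 CPM in untrained cord. Its value in untrained replicate 3 lay under the floor of 3 counts, 0.192 CPM in that library. Membrane and plasma inhibitors and inducers had 0 of 9 past the test and a median of -0.054, with Bsg, the MMP inducer basigin, at 608, 624 and 605 CPM in trained and 553, 536 and 568 CPM in untrained cord (log2 fold change 0.15 ± 0.07, edgeR adjusted p = 0.518). The ADAM sheddases had 0 of 10 past the test and a median of -0.14. Adam10, the alpha-secretase gene, was at -0.23 ± 0.08 (edgeR adjusted p = 0.390). Astacins and related matrix proteases had 0 of 11 past the test and a median of -0.066, with the hyaluronidase gene Hyal2 at 0.26 ± 0.16 (edgeR adjusted p = 0.604).

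The substrates were likewise below the threshold. Of the lecticans and basement membrane genes 0 of 15 passed, with 2 log2 fold changes positive and 13 negative and a median of -0.16. Tnr, the gene of tenascin-R in perineuronal nets, was at 142, 134 and 121 CPM in trained and 157, 163 and 179 CPM in untrained cord, with no overlap and a log2 fold change of -0.33 ± 0.08 (edgeR adjusted p = 0.218). Vcan, the gene of versican, a substrate of ADAMTS1, was at 36.6, 37.7 and 37.9 CPM in trained and 41.7, 44.1 and 41.8 CPM in untrained cord. It too had no overlap, at -0.19 ± 0.07 (edgeR adjusted p = 0.434). The other lectican genes Acan, Bcan and Ncan had log2 fold changes of -0.16, 0.043 and 0.12, and their groups overlapped. Lamc1 of the same list had a smaller unadjusted edgeR p than Vcan and no overlap, at -0.27 ± 0.10. Vcan and the genes set beside it here were chosen after their values were seen. A link between Adamts1 and Vcan was not tested. Fibrillar collagens and microfibril genes had 0 of 15 past the test, with 8 positive and 7 negative and a median of 0.066, and Col4a2, a basement membrane collagen gene, had the smallest p at -0.33 ± 0.14 (edgeR adjusted p = 0.497).

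Markers of cord cells were present in each library. Oligodendrocyte markers summed to 38553 to 43336 CPM in trained and 34169 to 39473 CPM in untrained cord, astrocyte markers to 9102 to 11078 and 10100 to 10518 CPM, and neuron markers to 7018 to 8651 and 7813 to 9144 CPM. No gene of the 13 cell type marker lists passed the test. Skeletal muscle markers summed to 10.2 to 11.7 CPM in trained and 3.51 to 10.7 CPM in untrained cord. Total counts were 15814104 to 26092014 in the trained and 15947347 to 18081949 in the untrained libraries, and trained replicate 1 was the deepest.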

How the data were processed

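Raw read counts of each Ensembl gene in 6 libraries were deposited by the authors in a single table, with gene names, coordinates, lengths and biotypes. The reads were 150 bp pairs from the Illumina NovaSeq, according to the labels' protocols. Bowtie 0.12.2, mm8 and mm9 are listed in the submitters' processing notes without a stated role. How reads were counted, with which annotation and whether by strand is not given in the sources used here. Of 54409 gene IDs found in GENCODE M21 (GRCm38), 98.3% had the same coordinates, among them 49 of the 50 members (all but Adamts19).

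The count model was edgeR's quasi-likelihood test (edgeR 4.0.16, R 4.3.3) with TMM factors, the filterByExpr filter, a robust fit and group as the only term. P-values were adjusted by Benjamini-Hochberg over all 16909 genes tested. CPM values are TMM-scaled. Each SE is the absolute log2 fold change divided by the square root of F. The steps were tested on simulated data. Alternatives were other scaling (RLE, upper quartile), other tools (DESeq2 1.42.0, and limma-voom in limma 3.58.1), other filters (none, or 1 CPM in 3 libraries), a replicate block and leaving out each library.

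The members, roles and lists were chosen with earlier results of these data known. Values are given for the 2 members of smallest p in each role, the 6 of highest CPM per kb, each with an unadjusted p below 0.05, and the gene of smallest p in each pathway list. Values of other members were added after they were seen. One listed gene, Cemip2, was not found under that name.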

Additional observations from a re-analysis of the deposited data

How the results depend on the processing

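The count of genes past the threshold, 10 in the fit reported, was 92 with DESeq2, 276 with no filter on low counts and 4 to 221 on leaving out 1 library, the highest without trained replicate 3. The count of members, 0 in the fit reported, was 2 of 35 with an adjusted p in DESeq2 (0.608% of all genes passed). It was 2 of 48 with no filter (0.909%), with Adamts1 and Timp3 in both, and 0 to 2 on leaving out 1 library. It was 2 of 43 without trained replicate 3 (Adamts1 and Timp1, 1.29% of all genes) and 1 of 43 without untrained replicate 3 (Adamts1, 0.0810%). Under the remaining alternatives it was 0. The replicate block gave 5 genes and 0 members. Libraries with the same number did not deviate together (correlations of -0.23, -0.077 and -0.17), and no library correlated best with its own number. No pairing by number was thus seen. With deviations taken from means of 3 libraries, this comparison cannot exclude a pairing. The causes of these differences were not tested.

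Of the comparisons of a named member with an alternative, 251 kept their sign and side of the threshold, 7 crossed it and 13 changed sign, all in members at a log2 fold change between -0.28 and 0.29. Under upper-quartile scaling Timp2 was at 0.0035 and Timp4 at 0.0073, and with limma-voom Adamts14 was at -0.034. On leaving out 1 library the ranges were -0.17 to 0.76 for Adamts14, -0.45 to 0.069 for Adamts19, -0.020 to 0.13 for Adamts4, -0.14 to 0.0031 for Adamtsl1, -0.30 to 0.21 for Mmp2, -0.066 to 0.028 for Timp2 and -0.046 to 0.024 for Timp4. The members' median log2 fold change was -0.12 to 0.0100 on leaving out 1 library and -0.096 to -0.070 otherwise. The lowest members are limited by depth, since 3 counts are 0.116 to 0.192 CPM.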
